A study of Mus musculus with 8 samples.

Results

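Neurotrophin signalling was followed through 8 genes: the receptor genes Ngfr, Ntrk2 and Ntrk3, the sorting receptor genes Sort1 and Sorcs2, and the ligand genes Bdnf, Ntf3 and Gdnf. They were picked by symbol out of the 53801 genes of the count table. The libraries came from MO5 tumours, a B16 mouse melanoma line carrying ovalbumin, grown under the skin of ADAM12-GFP mice. In these mice of C57Bl/6 background a bacterial artificial chromosome with Adam12 control sequences drives a Cre-Ires-GFP cassette, so that GFP marks cells in which that transgene is active. Mice 8 to 12 weeks old gave tumours that were sorted at day 8. The study as a whole used males and females, without saying which gave these libraries. CD45- CD31- stromal cells bearing PDPN and PDGFRα were divided into a GFP+ group of 4 libraries and a GFP- group of 4 libraries, so both groups carry the same surface gate, the same tumour model and the same transgenic line and differ in reporter state. The labels do not say whether libraries came from separate mice, while the study's methods count mice as n unless stated otherwise. P-values measure the spread between these libraries.

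Neurotrophins are secreted growth factors first known for keeping neurons alive. They are made as pro-forms, cut to mature ligands, and bind Trk receptor tyrosine kinases, which signal growth and survival. The p75 neurotrophin receptor, encoded by Ngfr, has no kinase; it binds all mature neurotrophins and, together with sorting receptors of the VPS10 family, the pro-forms. Outside the nervous system p75 is found on mesenchymal progenitors, reticular stromal cells, nerve-associated cells and many melanoma cells. GDNF belongs to a separate ligand family that acts through Ret and its GFRα partners.

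Of the 8 genes, Ngfr and Ntrk2 were the pair called higher in GFP+ cells under every setting tried, and the sequence just upstream of each start site is shown for that reason. The windows run from 250 to 51 bases before the RefSeq start (GRCm38.p6, strand of the gene, 5′ to 3′), at chr11:95587749-95587948 on the minus strand for Ngfr and chr13:58806319-58806518 on the plus strand for Ntrk2. Capitals mark GC boxes, searched as GGGCGG on both strands, the only motif looked for.
Ngfr: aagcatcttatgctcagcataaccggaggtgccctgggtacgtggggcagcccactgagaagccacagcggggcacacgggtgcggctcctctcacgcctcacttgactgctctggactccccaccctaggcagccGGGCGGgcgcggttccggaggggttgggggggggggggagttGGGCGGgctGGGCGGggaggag
Ntrk2: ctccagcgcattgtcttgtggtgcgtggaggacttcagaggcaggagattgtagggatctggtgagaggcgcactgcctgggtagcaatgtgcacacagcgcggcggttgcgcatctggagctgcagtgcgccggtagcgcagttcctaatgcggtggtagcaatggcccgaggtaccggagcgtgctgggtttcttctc
The Ngfr window held 3 GC boxes and 13 CG dinucleotides in 200 bases, and the Ntrk2 window held 0 GC boxes and 14 CG dinucleotides. Of 32851 promoter windows of the same length, 24.6% held a GC box and 4.34% held 3 or more, and the median number of CG dinucleotides was 4. Of the 8 genes, 5 matched the promoter table, and Ntrk3, Sort1 and Sorcs2 did not. These matches describe letters only.

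Library depth ran from 883144 counts in GFP- replicate 3 to 31666734 in GFP+ replicate 4. In GFP- replicate 3, the shallowest library, 3 counts corresponded to 33.0 normalised counts, so the low genes below are coarse there. Values are read counts divided by the DESeq2 size factor of the library (normalised read counts). Adam12 itself was called higher in GFP+ cells, by 0.75 ± 0.24 (SE) on the log2 scale (adjusted p = 0.0266 by DESeq2 and 0.0643 by edgeR, which did not call it). Its RNA was present in both groups, at 920 to 1693 normalised counts in GFP- and 1833 to 2938 in GFP+ libraries. Marker genes of the gate were present in all libraries, and the summed 8 fibroblast markers ran from 253552 to 559288 in GFP- and from 666226 to 764372 in GFP+ libraries, without overlap, with 6 of 8 called higher. The 10 melanocyte markers summed to between 24919 and 72961 in GFP- and between 4480 and 11680 in GFP+ libraries, also without overlap, and 10 of 10 were called lower in GFP+. Schwann cell and glial markers summed to 2516 to 5043 in GFP- and 1565 to 2267 in GFP+ libraries, with 6 of the 9 that had an adjusted p called lower. The bulk libraries cannot tell fewer cells of a type from less RNA per cell.

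All 8 genes had an adjusted p. Ngfr, Ntrk2 and Ntf3 were called higher in GFP+ cells, Sort1 was called lower, and Bdnf, Ntrk3, Sorcs2 and Gdnf were not called. Calls are adjusted p-values under 0.05 by the DESeq2 Wald test fitted to the whole table, where 9.42% of 15283 genes were called, 4.66% higher and 4.76% lower. The edgeR quasi-likelihood test, which called 5.11% of 14323 genes (2.83% higher and 2.28% lower), called Ngfr, Ntrk2 and Sort1 and not Ntf3. The groups of 4 libraries did not overlap for the same 4 genes that DESeq2 called, against 12.3% of all genes with an adjusted p (6.37% higher and 5.95% lower). Among the 712 genes called higher, 87 had a larger log2 fold change than Ngfr, 163 a larger one than Ntf3 and 210 a larger one than Ntrk2, and among the 727 called lower 167 fell further than Sort1.

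**Figure D1:**
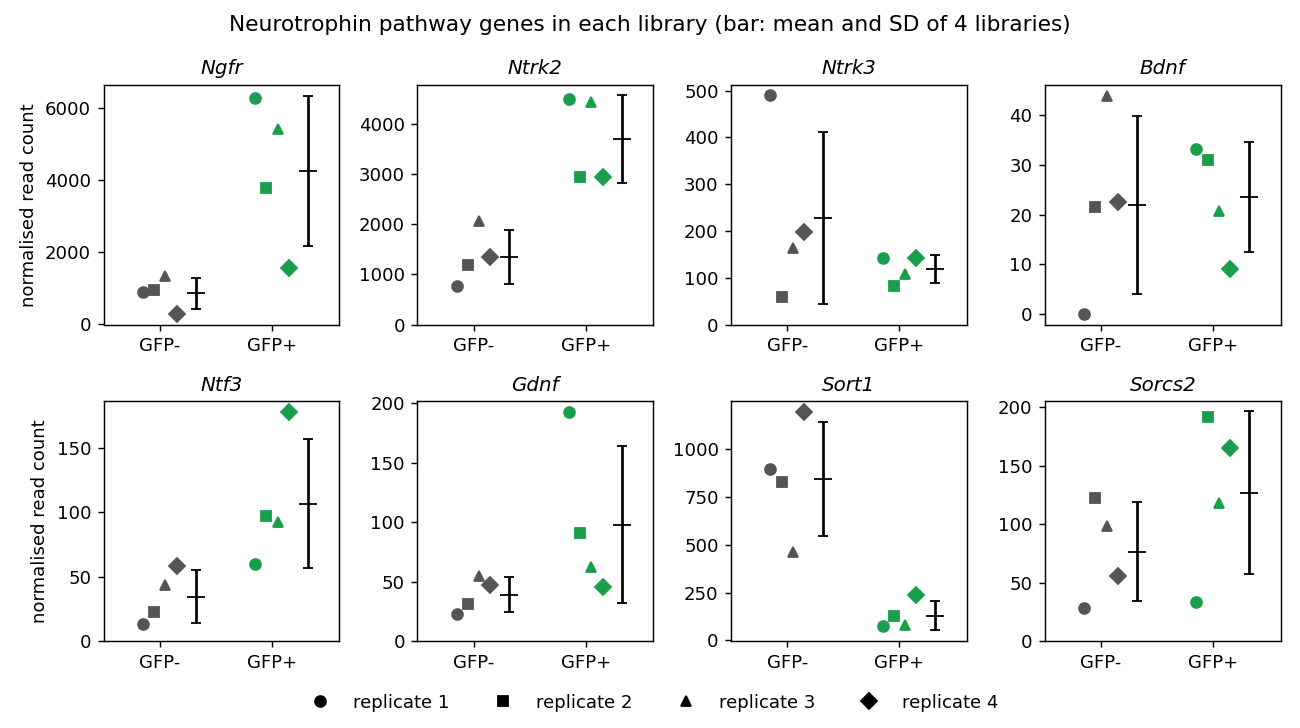
Normalised read counts (linear axis) of the 8 genes in the 4 GFP- and 4 GFP+ libraries, with one point per library, its shape giving the replicate number, and a bar for the mean and SD. Ngfr, Ntrk2, Ntf3 and Sort1 have groups that do not overlap, whereas the groups of Ntrk3, Bdnf, Gdnf and Sorcs2 do.

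Ngfr (chr11:95568818-95587735, minus strand) encodes the p75 receptor. Its normalised read counts were 885, 926, 1318 and 273 in GFP- replicates 1 to 4 and 6281, 3795, 5441 and 1542 in GFP+ replicates 1 to 4. Every GFP+ library lay above every GFP- library, and replicate 4 was the lowest of its group on both sides. Means were 851 ± 432 (SD, n = 4) and 4265 ± 2088 (SD, n = 4), and the fitted difference was 5.06-fold. The log2 fold change was 2.34 ± 0.45 (SE), with a 95% interval of 1.45 to 3.22 and an adjusted p of 1.5e-05, or 0.0102 by edgeR. The study itself picked out Ngfr as a progenitor gene of ADAM12+ cells in these libraries, so its direction is no independent evidence for that.

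Since marker sums differed between the groups, Ngfr was also set against the sum of the fibroblast markers, which include Pdgfra and Pdpn of the gate. Collagen genes were the largest terms of that sum. Mean GFP+ values were 357909 for Col3a1, 144689 for Col1a1 and 126571 for Col1a2, against 14371 for Pdgfra and 3161 for Pdpn. Col3a1 was lowest in GFP- replicate 4, at 102096. The sum thus weighed collagen RNA above the gate genes, and scaling to Pdgfra and Pdpn alone was not tested. Per 1000 counts of the summed fibroblast markers, Ngfr ran from 1.08 to 2.99 in GFP- and from 2.31 to 8.22 in GFP+ libraries. On this scale, chosen after the values were seen, GFP+ replicate 4 (2.31) lay below GFP- replicate 3 (2.99), and the other 3 GFP+ libraries, at 5.68, 7.59 and 8.22, lay above every GFP- library. The libraries with the most melanocyte marker counts in each group, GFP- replicate 4 (72961) and GFP+ replicate 4 (11680), were also those with the least Ngfr. The part of the melanocyte markers in the Ngfr difference was not tested.

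Ntrk2 (chr13:58806569-59133970, plus strand) encodes TrkB, the kinase receptor for BDNF and neurotrophin-4. It stood at 771, 1197.5, 2066 and 1341 normalised counts in the GFP- libraries and at 4501, 2937, 4427 and 2938 in the GFP+ libraries. The lowest GFP+ library was above the highest GFP- library. Mean Ntrk2 was 1344 ± 539 (SD, n = 4) against 3701 ± 882 (SD, n = 4), and the groups differed by 1.48 ± 0.29 (SE) on the log2 scale (95% interval 0.91 to 2.05). The adjusted p was 2.34e-05 by DESeq2 and 0.00562 by edgeR. Per 1000 fibroblast marker counts Ntrk2 ran from 1.38 to 5.29 in GFP- and from 4.40 to 6.17 in GFP+ libraries, ranges that overlap. Counts per gene do not separate the kinase-bearing form of TrkB from the truncated forms made from the same gene.

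Ngfr and Ntrk2 did not keep a fixed ratio. There were 1.15, 0.773, 0.638 and 0.204 Ngfr counts per Ntrk2 count in GFP- replicates 1 to 4, and 1.40, 1.29, 1.23 and 0.525 in GFP+ replicates 1 to 4. The groups overlapped, and the lowest ratio of each group was in replicate 4.

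Ntrk3 (chr7:78175959-78738012, minus strand) encodes TrkC, the preferred receptor of neurotrophin-3. Its counts were 489.8, 60.2, 165 and 197 in GFP- and 143, 82.4, 109 and 142 in GFP+ libraries. One library, GFP- replicate 1, stood far above the rest, and the groups overlapped. The log2 fold change was -0.95 ± 0.53 (SE), with a 95% interval from -1.99 to 0.10 and an adjusted p of 0.303. Without GFP- replicate 1 it came to -0.22.

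Ntf3 (chr6:126101412-126166910, minus strand) encodes neurotrophin-3, the ligand of TrkC that also binds p75. It was low in all libraries, with 13.6, 22.9, 43.9 and 58.3 normalised counts in GFP- and 59.7, 97.1, 92.2 and 178 in GFP+ libraries. The groups did not overlap, but the highest GFP- library (58.3) almost met the lowest GFP+ library (59.7). Means were 34.7 ± 20.2 and 107 ± 50.2 (SD, n = 4 each). They differed by 1.66 ± 0.57 (SE) on the log2 scale, at an adjusted p of 0.0396. The call was not firm: edgeR gave an adjusted p of 0.16 and limma voom 0.0912, and it was lost in 5 of the 8 fits that left out 1 library (GFP- replicates 1 and 2, GFP+ replicates 2, 3 and 4). Per 1000 fibroblast marker counts Ntf3 ran from 0.0243 to 0.230 in GFP- and from 0.0781 to 0.267 in GFP+ libraries, which overlap.

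Bdnf (chr2:109674700-109727007, plus strand) encodes brain-derived neurotrophic factor, the ligand of TrkB. It stood at 0, 21.5, 43.9 and 22.6 normalised counts in GFP- and 33.3, 31.0, 20.7 and 9.06 in GFP+ libraries, so the groups overlapped throughout. These values rest on few reads: 0, 30, 4 and 43 raw counts in GFP- and 24, 74, 27 and 27 in GFP+ libraries. The log2 fold change was 0.23 ± 0.96 (SE, adjusted p = 0.941), and its 95% interval from -1.65 to 2.12 leaves room for a several-fold change either way. The sign turned to -0.18 without GFP- replicate 1.

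Gdnf (chr15:7810846-7837575, plus strand) encodes glial cell line-derived neurotrophic factor. Its counts were 23.1, 31.5, 54.9 and 47.3 in GFP- and 193, 91.2, 62.2 and 45.6 in GFP+ libraries. GFP+ replicates 1, 2 and 3 lay above all GFP- libraries and GFP+ replicate 4 among them. The log2 fold change of 1.38 ± 0.56 (SE) had a 95% interval of 0.29 to 2.48, did not pass at an adjusted p of 0.105, and became 0.85 without GFP+ replicate 1.

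Of the other ligand genes, Ntf5, Nrtn, Artn and Pspn had too few counts for an adjusted p.

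**Figure D2:**
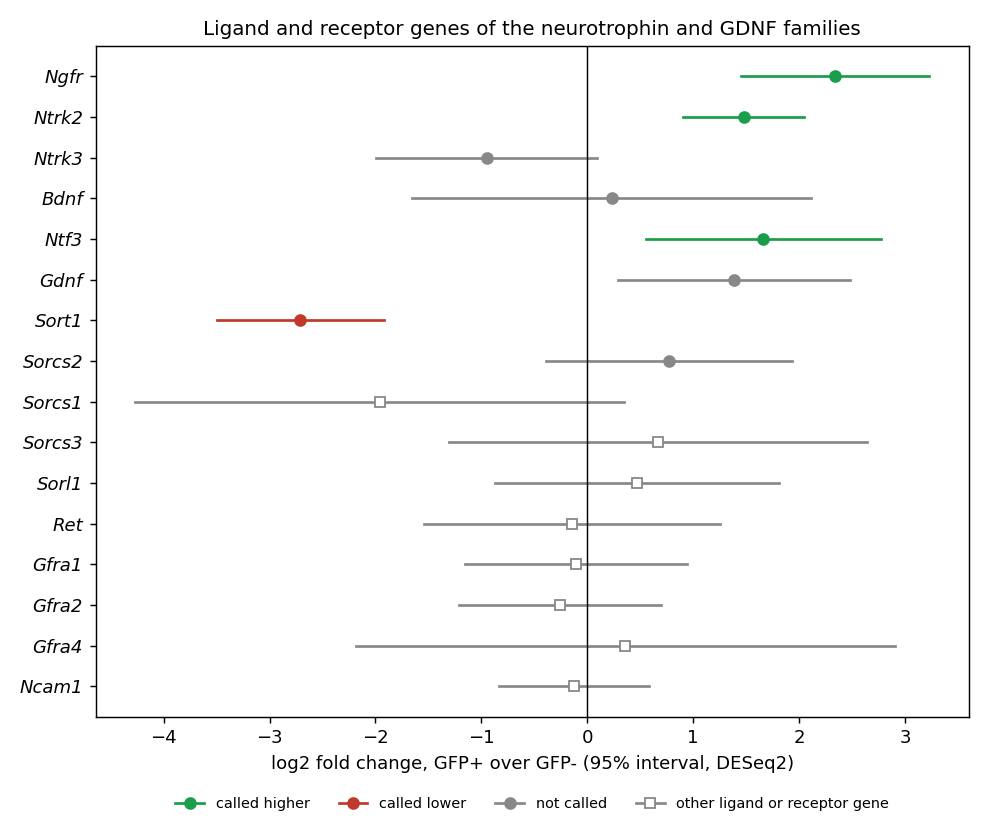
Log2 fold changes of GFP+ over GFP- (DESeq2, horizontal axis) with 95% intervals, filled circles for the 8 genes and open squares for other ligand and receptor genes with an adjusted p. Intervals of Ngfr, Ntrk2, Ntf3 and Gdnf lie above 0 and that of Sort1 below 0, Gdnf without an adjusted p under 0.05, and the wide interval of Bdnf spans -1.65 to 2.12.

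Sort1 (chr3:108284082-108361511, plus strand) encodes sortilin, a VPS10 sorting receptor that binds pro-neurotrophins with p75 and also carries other cargo between the Golgi and endosomes. It had 894, 826, 461 and 1191 normalised counts in GFP- and 73.6, 126, 79.1 and 238 in GFP+ libraries. No GFP+ library reached the lowest GFP- library. Mean Sort1 was 843 ± 299.9 (SD, n = 4) in GFP- cells, against 129 ± 76.2 (SD, n = 4) in GFP+ cells, and the fitted difference was 6.54-fold. The log2 fold change was -2.71 ± 0.40 (SE), with a 95% interval of -3.50 to -1.92 and an adjusted p of 3.6e-09, or 0.00177 by edgeR.

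Sort1 moved together with the melanocyte markers. Per 1000 counts of those 10 markers, Sort1 stood at 17.7, 18.1, 18.5 and 16.3 counts in GFP- replicates 1 to 4. In GFP+ replicates 1 to 4 it stood at 16.4, 16.7, 17.3 and 20.4, so the groups overlapped on this scale, which was chosen after the values were seen. The mean ratio of the GFP- libraries was 17.7 ± 0.947 (SD, n = 4), and that of the GFP+ libraries 17.7 ± 1.81 (SD, n = 4). Over the 8 libraries the 5 genes with the pattern most like Sort1, by Pearson correlation of log2(normalised count + 1), were Pmel (r = 0.9981), Tyrp1 (r = 0.9976), Tyr (r = 0.9973), Tinagl1 (r = 0.9954) and Arfgef3 (r = 0.9952). Pmel, Tyrp1 and Tyr are pigment genes of the melanosome and are on the melanocyte marker list, and the points share their libraries and size factors. After the group means were taken out, r with Pmel was 0.9887. The part of melanocyte or tumour cell RNA in the Sort1 difference was not tested, and the fold of Sort1 is one between libraries that differ in these markers.

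**Figure D3:**
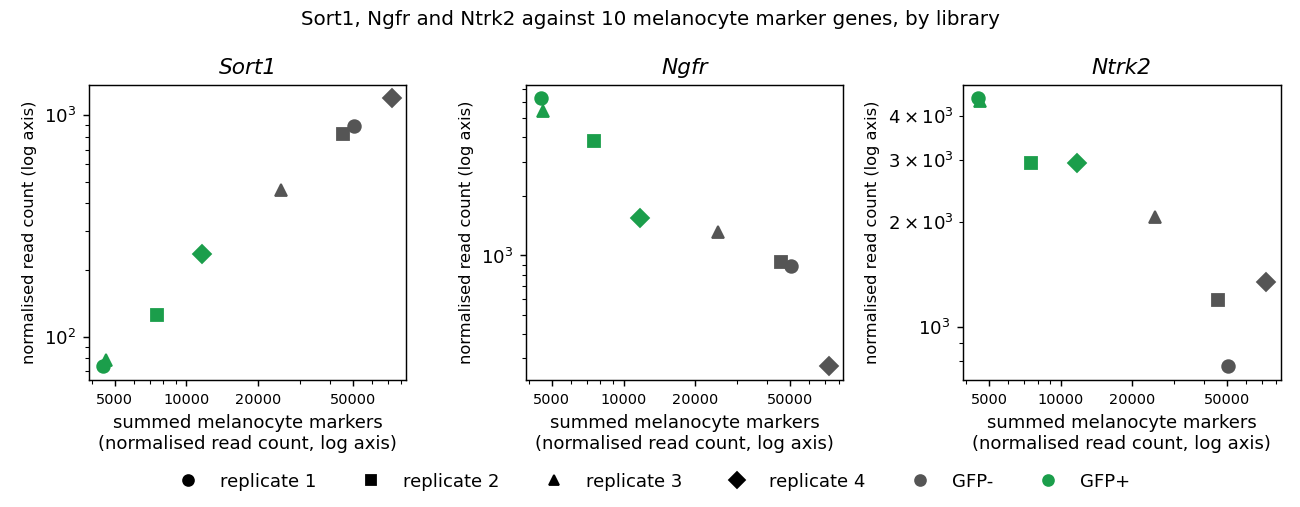
Normalised read counts of Sort1, Ngfr and Ntrk2 against the summed counts of 10 melanocyte markers in each library (both axes log), grey for GFP- and green for GFP+, shapes for replicate numbers. Sort1 climbs in step with the markers, from 73.6 to 1191 counts, whereas Ngfr and Ntrk2 are higher in the GFP+ libraries, where the markers are lower.

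Sorcs2 (chr5:36017180-36398139, minus strand) encodes SorCS2, a sorting receptor of the same family that also pairs with p75. Its counts were 28.5, 123, 98.9 and 55.7 in GFP- and 33.3, 191, 118 and 165 in GFP+ libraries. The groups overlapped and each had its lowest value in replicate 1. The log2 fold change of 0.77 ± 0.59 (SE) had an adjusted p of 0.51 and a 95% interval of -0.39 to 1.93. Of the other VPS10 genes, Sorcs1 (log2 fold change -1.96), Sorcs3 (0.66) and Sorl1 (0.47) were not called.

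To compare levels between genes, normalised counts were divided by annotated exon length in kilobases. In GFP+ cells Ngfr was highest of the 8, with a mean of 1238 counts per kilobase (447 to 1823 over the libraries), followed by Ntrk2 with 192 (152 to 233). Ntf3 came next with 62.2 and a range of 34.8 to 104. The steps from Ngfr to Ntrk2 and from Ntrk2 to Ntf3 were those without overlapping ranges. Below them Gdnf (26.7), Sort1 (17.0), Sorcs2 (14.4), Ntrk3 (3.95) and Bdnf (3.78) each overlapped the next in order. In GFP- cells the order was Ngfr with 247 counts per kilobase, Sort1 with 111, Ntrk2 with 69.6, Ntf3 with 20.2, Gdnf with 10.7, Sorcs2 with 8.68, Ntrk3 with 7.56 and Bdnf with 3.54. There, Ntrk2 and Ntf3 were the only neighbours whose ranges did not overlap. The length is that of all annotated exons of a gene merged, 19.3 kilobases for Ntrk2 and 30.2 for Ntrk3 against 3.45 for Ngfr, so values of genes with many exon variants are low on this scale.

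**Figure D4:**
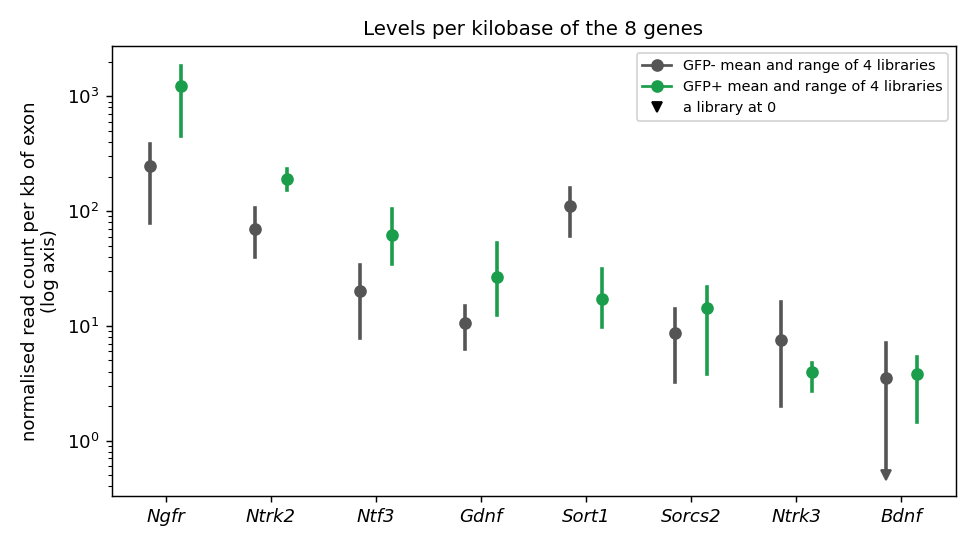
Normalised read counts per kilobase of exon (log axis) for the 8 genes, with points for the mean and lines for the range of 4 libraries in GFP- (grey) and GFP+ (green) cells. Ngfr stands highest of the 8 in both groups, at 247 and 1238, and the triangle marks the GFP- library in which Bdnf was 0.

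The genes whose pattern over the 8 libraries was most like Ngfr, among 8812 genes with a mean of at least 100 normalised counts, were Tmem45a (r = 0.9846), Aldh1a1 (r = 0.9836), Vegfa (r = 0.9821), Csf1 (r = 0.9796) and Egfr (r = 0.9774). Aldh1a1 encodes a retinaldehyde dehydrogenase, Vegfa a vascular growth factor, Csf1 the macrophage growth factor and Egfr the EGF receptor, and all 5 were called higher in GFP+ cells. For Ntrk2 they were Tgfbr3 (r = 0.9941), Vegfd (r = 0.9919), Ctsb (r = 0.9917), Zfp36l2 (r = 0.9908) and Pcf11 (r = 0.9889). Tgfbr3 encodes betaglycan, a TGF-β co-receptor, and Vegfd a lymphangiogenic factor, and these 5 were called higher as well. For Ntf3 they were Cpne3 (r = 0.9695), Scg3 (r = 0.9655), Sfrp2 (r = 0.9585), Mtus1 (r = 0.9556) and Abca8a (r = 0.9497), of which Sfrp2, a secreted Wnt modulator, was not called (log2 fold change 0.64, adjusted p = 0.108). These values rank likeness over 8 libraries that share the group difference, and carry no test.

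The wider pathway was read from lists of 78 genes, 70 of them beyond the 8. Of the 59 of these 70 with an adjusted p, 4 were called higher and 3 lower, a share near the 9.42% called among all genes tested, and the median log2 fold change was 0.07, against -0.01 over all genes tested. Among 8 tested genes of pro-neurotrophin processing, 2 were called higher and 1 lower, where 4.66% and 4.76% of all genes were. Mmp3, encoding stromelysin-1, a matrix metalloproteinase able to cut pro-neurotrophins, ran from 1449 to 2329 normalised counts in GFP- and from 6606 to 7615 in GFP+ libraries, a log2 fold change of 1.95 ± 0.17 (SE, adjusted p = 1.42e-26). The proprotein convertase gene Pcsk5 was also higher, with 970.2 to 1681 against 2081 to 3491 counts and a log2 fold change of 0.95 (adjusted p = 0.00111). Mmp9, encoding gelatinase B, was lower, with 136 to 361 against 12.1 to 128 counts and a log2 fold change of -2.47 (adjusted p = 0.00284). Furin, encoding the general pro-neurotrophin convertase, was not called (log2 fold change 0.38, adjusted p = 0.499).

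Of 21 tested genes of p75 shedding, co-receptors and adaptors, 1 was called by DESeq2, below the 9.42% of all genes, and 0 by edgeR. Irak1, encoding a kinase shared with interleukin-1 receptor signalling, was higher with a log2 fold change of 0.60 (adjusted p = 0.0408 by DESeq2 and 0.0808 by edgeR). Of 21 tested Trk adaptors and modulators, 1 was called higher and 2 lower by DESeq2, which called 9.42% of all genes, and 1 was called by edgeR, which called 5.11%. The adaptor gene Shc1 was higher (log2 fold change 0.64, adjusted p = 0.0292, edgeR 0.0986), Shc4 lower (-1.11, adjusted p = 0.0213, edgeR 0.112), and Ptprs, encoding a receptor tyrosine phosphatase, lower (-0.60, adjusted p = 0.00298, edgeR 0.0355). For these genes and for Mmp9, the part of melanocyte or tumour cell RNA in the difference was not tested. None of the 5 tested GDNF family receptor genes was called by DESeq2 or edgeR, and 0 had an unadjusted p under 0.05: Ret had a log2 fold change of -0.15, Gfra1 -0.11, Gfra2 -0.26, Gfra4 0.36 and Ncam1 -0.12.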

How the data were processed

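Total RNA of 4 GFP+ and 4 GFP- sorted cell libraries was sequenced after stranded small-input library preparation (SMARTer Pico). Per the study's methods and the submitters' processing notes, the authors trimmed reads with cutadapt 3.4, mapped them to GRCm38 with STAR 2.7.3a and assigned them by strand to Ensembl genes with featureCounts 2.0.1. The authors deposited raw counts per gene and library, from which all values here start. Beside them stand the authors' normalised score per library (count over size factor, rounded) and their fold changes and p-values, which were not used. Every per-sample column could be mapped to a sample.

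In R 4.3.3, genes with a count (29043) were fitted with DESeq2 1.42.0 (group only, median-of-ratios size factors, two-sided Wald test, Benjamini-Hochberg adjustment over 15283 genes, called under 0.05). Alternatives used edgeR 4.0.16 and limma 3.58.1. The main fit and the alternatives in method, size factors, filters and block were also run on counts simulated with independent noise. The fits that left out a library and the stricter threshold were not. Replicates of a group differed by more than sampling noise (chi-square per degree of freedom of at least 9.68). Positions and exon lengths came from GENCODE M21 (53706 of 53801 identifiers found) and promoters from RefSeq. No protein sequence was used.

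The 8 genes, the pathway lists, the marker lists (fibroblast, melanocyte, Schwann cell and glial, neuron, pericyte, endothelial, leukocyte, skeletal muscle, lymphoid stroma and perineurial) and the settings were chosen with earlier results of these data known. Named were the 8 genes, every called pathway gene, every other ligand or receptor gene, and for each called member of the 8 the 5 genes most correlated with it; some genes that this rule names are not reported here. Furin and Adam12 were named after their values were seen. Intervals are DESeq2 Wald intervals at 95%.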

Additional observations from a re-analysis of the deposited data

How the results depend on the processing

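Over 16 alternatives, Ngfr (log2 fold change 2.04 to 2.63, adjusted p at most 0.0202), Ntrk2 (1.29 to 1.74, at most 0.00562) and Sort1 (-3.19 to -2.50, at most 0.00177) kept their direction and call. Ntf3 kept its direction (1.30 to 2.24) and lost its call in 10 of 16, with adjusted p-values from 0.00597 to 0.242. Bdnf reversed to -0.18 without GFP- replicate 1 and was called nowhere, and Ntrk3, Sorcs2 and Gdnf kept their direction without a call. Bdnf ranged from -0.18 to 0.64 over the left-out fits. Of the 8 genes, 2 or 3 were called higher and 1 lower in every alternative. The 7 pathway genes called higher came to 4 under edgeR, limma voom, no independent filtering or an adjusted p under 0.01, and ranged from 4 (without GFP+ replicate 2 or 3) to 8 when 1 library was left out; the 4 called lower ranged from 3 to 6 (6 without GFP- replicate 3 or GFP+ replicate 1). The cause was not tested. Same-numbered GFP- and GFP+ libraries deviated with correlations of 0.0503, -0.158, -0.122 and 0.262, which do not show that the numbers pair them (the highest of all 16 was that of number 4), and the labels do not say. With the replicate block, 3 of the 8 genes were called higher and 1 lower, and the pathway counts were 7 and 4, with 6 and 3 genes shared with the unblocked fit. Depth limits Bdnf most, with at most 74 raw counts per library.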

Other observations

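Among the remaining marker lists, the summed normalised counts of the GFP- and GFP+ libraries overlapped. Neuron markers, which include Prph of peripheral neurons, ran from 65.9 to 1042 in GFP- and from 46.9 to 185 in GFP+ libraries, with Tubb3 at 0 in all 8. Prph alone made up most of the GFP- sums, with 859, 757, 54.9 and 1012 counts in replicates 1 to 4. The overlap came from GFP- replicate 3 (65.9, with 5 raw counts of Prph), since the other GFP- libraries stood between 813 and 1042. Why that library was lower was not tested. Single markers of these lists were called. Prph (log2 fold change -3.13, adjusted p = 0.0153), the endothelial gene Vwf (-3.30, adjusted p = 3.77e-05) and the pericyte list gene Mcam (-1.60, adjusted p = 0.000593) were lower in GFP+ cells by DESeq2, with overlapping groups for Prph. Vwf was the only endothelial gene called. Kdr (log2 fold change 1.14), Pecam1 (0.42), Tek (0.09), Cdh5 (-0.81) and Cldn5 (-5.80) were not called. Abcc9 of the pericyte list (1.15, adjusted p = 0.0493, edgeR 0.0975) and the chemokine gene Cxcl13 (1.33, adjusted p = 0.00114, edgeR 0.0177) were higher by DESeq2, both with overlapping groups. Pericyte markers ran from 540.3 to 1121 and from 698 to 1438, endothelial markers from 1492 to 2923 and from 1892 to 3549, and leukocyte markers from 593 to 4373 and from 645 to 3324. Skeletal muscle markers ran from 9.50 to 93.0 and from 43.0 to 155, lymphoid stroma markers from 386 to 1549 and from 1144 to 1979, and perineurial markers from 763 to 1988 and from 654 to 998.

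Some ligand and receptor genes outside the 8 rested on 1 library. Pspn, encoding persephin of the GDNF family, had 0 raw counts in all 4 GFP- libraries and 26, 0, 3 and 4 in the GFP+ libraries. Sorcs1 had 126 raw counts in GFP- replicate 2 and between 0 and 15 in each of the other libraries.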
